A study of Homo sapiens and Mus musculus with 4 samples.

Results

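The MHC class II genes, their chaperones and their master regulator were followed as 20 of the 60736 genes measured, 10 of 32738 human and 10 of 27998 mouse genes. They were chosen by name, with earlier results of these data known. The human genes were HLA-DRA, HLA-DRB1, HLA-DPA1, HLA-DPB1, HLA-DQA1, HLA-DQB1, HLA-DMA, HLA-DMB, CD74 and CIITA, and the mouse genes were H2-Aa, H2-Ab1, H2-Eb1, H2-DMa, H2-DMb1, H2-DMb2, H2-Oa, H2-Ob, Cd74 and Ciita. The bulk RNA-seq libraries served as the baseline for a comparison of single-cell methods, with 1 library for each of 4 lymphocyte lines. Jurkat (described as human CD4+ T cells) was grown in RPMI with serum, and TALL104 (described as human CD8+ T cells) in IMDM with serum and interleukin 2. EL4 (described as mouse CD4+ T cells) was grown in RPMI with serum and 2-mercaptoethanol, and IVA12 (described as mouse B cells) in DMEM with serum. The labels name only the line, so each library stands for 1 established line with no treatment named beyond its medium, and the media differed along with the lines.

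Class II molecules are paired alpha and beta chains that present peptides from endosomes to CD4+ T cells. CD74, the invariant chain, occupies the groove during assembly, cathepsins and related enzymes digest it, and the DM chaperone exchanges its last fragment for peptide while the DO chaperone restrains DM. RFX, CREB and NF-Y proteins sit on the shared class II promoter in many cell types, whereas the coactivator CIITA is restricted to antigen-presenting cells or induced by interferon-gamma. Human T cells can switch class II on after activation, and mouse T cells as a rule do not.

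The promoter box arrangement is shown because the regulators measured below bind to it. The search looked on both strands for AGNNACNGA as the core of the X box, bound by RFX, followed 20 to 40 bases later by ATTGG, the inverted CCAAT of the Y box, bound by NF-Y. The windows ran from 250 bases before to 50 bases after the start in RefSeq promoters of GRCh38.p14, a build kept apart from the hg19 positions used for expression. Of 10 human members, 8 had an entry in that table, and HLA-DRA and CIITA were the others. In capitals are the X box core and the ATTGG, on the strand of the gene, for the 4 members with both:

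HLA-DRB1 (chr6:32589878-32589939, minus strand): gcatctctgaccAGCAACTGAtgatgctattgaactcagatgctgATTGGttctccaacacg

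HLA-DQA1 (chr6:32637292-32637354, plus strand): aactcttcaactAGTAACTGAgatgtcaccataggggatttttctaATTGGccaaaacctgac

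HLA-DQB1 (chr6:32666729-32666790, minus strand): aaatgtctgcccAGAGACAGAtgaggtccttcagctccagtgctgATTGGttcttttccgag

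HLA-DMA (chr6:32953160-32953222, minus strand): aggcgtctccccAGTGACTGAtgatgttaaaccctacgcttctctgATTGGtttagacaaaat

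The ATTGG began 33 or 34 bases after the first base of the core in all 4. The same arrangement was found in 0.296% of the 35116 promoters and in 2 of 5 other human class II chains with an entry, HLA-DOA and HLA-DRB5. Taken alone, the X box core was in 15.3% of promoters and in 6 of 8 members, and ATTGG was in 34.6% and in 7 of 8. The longer Y box letters CTGATTGG, which contain ATTGG, were in 3.97% of promoters and in HLA-DRB1, HLA-DQB1 and HLA-DMA. A match describes letters and is no evidence of a bound site, and the 4 genes with the arrangement ranged from one listed at 0 in both human lines (HLA-DQA1) to the highest human member (HLA-DRB1).

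FPKM scale the fragments of a gene by its length and by the library total, so levels of different genes can be compared per length. The library totals recovered from the FPKM were 34783047 (Jurkat), 28345951 (TALL104), 32149319 (EL4) and 25286728 (IVA12) reads. Intervals are exact 95% Poisson intervals on the recovered reads and cover counting error only, since with 1 library per line no difference has a replicate check and no test was made. Recovered reads are the smallest whole numbers that fit. Where the recovered length is below the annotated one, true reads may be a multiple and the intervals too wide. Among the members with such lengths were H2-DMb2 (285 against 1747 bases), H2-Oa (657 against 1407) and H2-Aa (937 against 3798). A gene was called detected at 1 FPKM or more, and different between 2 lines of a species when the ratio of FPKM + 1 passed 1.5-fold. That scale draws low genes toward a ratio of 1, so the unshifted ratio is given too. A value of exactly 0 is given as listed at 0. TOMM6, a mitochondrial import gene that every cell uses, was also listed at 0 in both human lines, so a listed 0 need not mean low RNA, and a limit of 3 reads beside one holds only if its reads could be counted. In a bulk library a small share of cells with much RNA and many cells with little RNA cannot be told apart.

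The lines were checked against marker lists. All 6 T cell markers were detected in Jurkat (38.9 to 400.1 FPKM) and TALL104 (33.4 to 249.8 FPKM), and in EL4 all 6 were higher than in IVA12, with Cd3d at 197.0 against 0.0299 FPKM and Cd3g at 176.0 against 1.15 FPKM. CD4 itself was at 0.985 FPKM in Jurkat and Cd4 at 0.208 FPKM in EL4, both under the detection level in lines described as CD4+. Of 6 B cell markers 2 were higher in IVA12 and 1, Cd22, in EL4 (1.75 against 0.119 FPKM). IVA12 held Cd79b at 163.2 and Ms4a1 at 46.5 FPKM, but the defining B cell genes Cd79a and Pax5 were at 0.0543 and 0.156 FPKM. All 6 plasma cell markers were higher in IVA12 than in EL4, led by Jchain (1289 against 0.148 FPKM) and Mzb1 (499.4 against 0.172 FPKM), and their sum was 2004 FPKM in IVA12 and 16.6 FPKM in EL4.

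Of the listed members, Cd74 in IVA12 had the highest level, 44.3 FPKM, and every other value was at or below 5.30 FPKM. In Jurkat 2 of 10 members were detected and in TALL104 0 of 10, where 33.2% and 33.1% of all human genes were. EL4 and IVA12 had 2 of 10 members detected each, where 34.3% and 35% of all mouse genes were. The 10 members of a species summed to 3.53 FPKM (Jurkat), 1.36 FPKM (TALL104), 10.3 FPKM (EL4) and 48.2 FPKM (IVA12), and the median member lay between 0.0286 FPKM in Jurkat and 0.157 FPKM in IVA12. Most of the IVA12 sum was Cd74 alone. The mouse list holds the DO chains H2-Oa and H2-Ob and the human list holds no DO chain. Sums and counts are therefore not like for like between the species. A value above 0 was seen for 8 members in Jurkat and 6 in TALL104, and for 7 in EL4 and 8 in IVA12. The share of all genes above 0 is not given here.

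**Figure D1:**
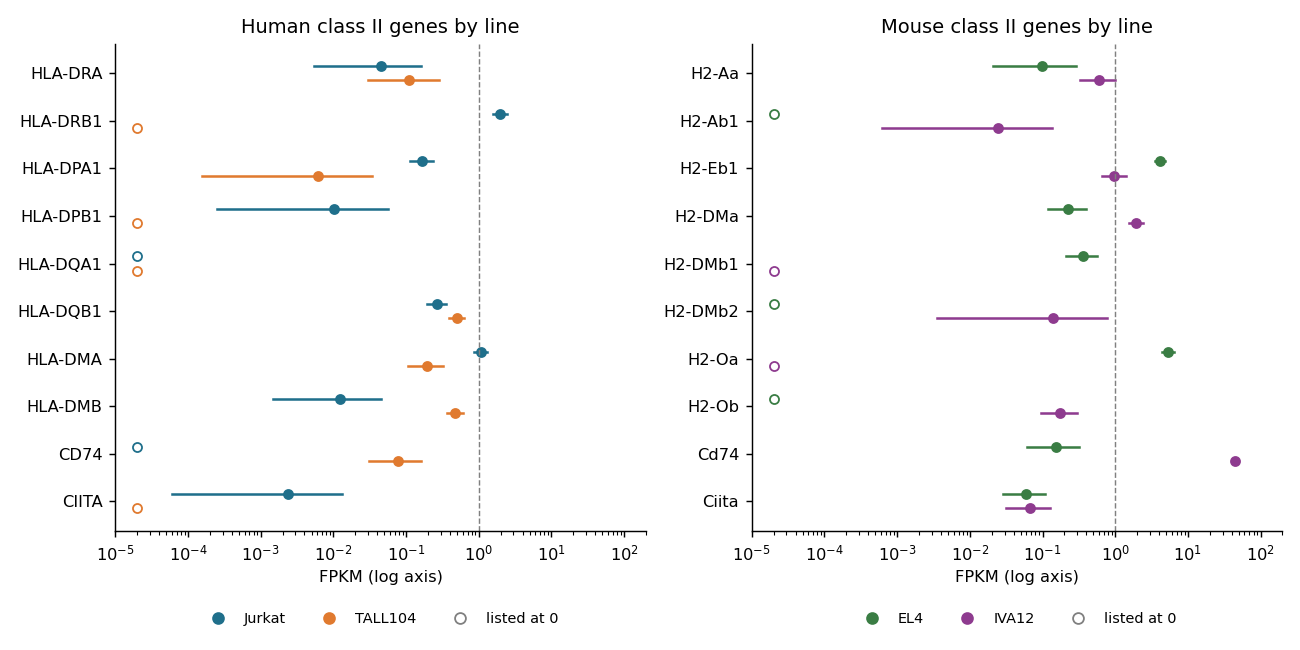
FPKM of each human (left) and mouse (right) class II member on a log axis, 1 point per line, with bars for the exact 95% Poisson interval and open points at the left edge for genes listed at 0; the dashed line is the detection level of 1 FPKM. Most points lie left of that line, and Cd74 in IVA12 at 44.3 FPKM is far to the right of every other member.

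Between the human lines, 2 of 10 members passed 1.5-fold, HLA-DRB1 and HLA-DMA, against 25.3% of all human genes. Both were higher in Jurkat (13.8% of all genes were) and 0 members were higher in TALL104 (11.4% of all genes were). This split depended on the pseudocount, since with 0.1 in place of 1 FPKM 6 members passed, 3 of them higher in TALL104, and with 0.01 FPKM 8 passed, 4 in each direction. A smaller pseudocount raises calls among low genes in general, and the share of all genes at these settings is not given here. The median log2 ratio of the 10 members was 0.00, as it was over all human genes, where many genes are at 0 in both lines.

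Among the antigen-presenting chains, the alpha chain HLA-DRA had 0.0449 FPKM in Jurkat (2 reads, interval 0.00544 to 0.162) and 0.110 FPKM in TALL104 (4 reads, 0.0300 to 0.282). These intervals overlapped, and both levels lie near the counting limit. Its partner, the polymorphic beta chain HLA-DRB1 (ENSG00000196126, hg19 chromosome 6, 32545679 to 32557625, minus strand), had 1.97 FPKM in Jurkat (84 reads, 1.57 to 2.43) and was listed at 0 in TALL104, where 3 reads would be 0.0861 FPKM. The lower limit in Jurkat was 18.2 times that level, and the log2 ratio was 1.57 on FPKM + 1. The alpha chain that HLA-DRB1 pairs with had 2 reads in Jurkat. No stretch of read length of HLA-DRB1 was shared with another annotated gene, but reads from alleles unlike the reference may align poorly, and the part of this in the 0 of TALL104 was not tested.

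The DP pair had few reads. HLA-DPA1 had 0.165 FPKM in Jurkat (33 reads, 0.114 to 0.232) and 0.00614 FPKM in TALL104 (1 read), a ratio of 26.9 (4.50 to 1094) that the FPKM + 1 scale reduced to a log2 value of 0.21. HLA-DPB1, which overlaps HLA-DPA1 on the opposite strand, had 0.0101 FPKM in Jurkat (1 read) and was listed at 0 in TALL104.

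Of the DQ pair, HLA-DQA1 was listed at 0 in all 4 libraries, so no length, read count or upper level could be recovered for it, and it is not compared with its partner. HLA-DQB1 had 0.264 FPKM in Jurkat (45 reads, 0.192 to 0.353) and 0.504 FPKM in TALL104 (70 reads, 0.393 to 0.636), so its level in TALL104 was 1.91 times higher (1.29 to 2.84) and was the highest of any member in that line. HLA-DQB1 also carries many alleles, and the effect of allele differences on its value was not tested.

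The peptide exchange chaperone DM showed opposite patterns for its chains. HLA-DMA (ENSG00000204257, hg19 chromosome 6, 32916390 to 32936871, minus strand), the alpha chain, had 1.07 FPKM in Jurkat (94 reads, 0.862 to 1.31) and 0.195 FPKM in TALL104 (14 reads, 0.107 to 0.327), a ratio of 5.47 (3.10 to 10.4) and a log2 value of 0.79 on FPKM + 1. HLA-DMB, the beta chain, had 0.0124 FPKM in Jurkat (2 reads, 0.00150 to 0.0446) and 0.470 FPKM in TALL104 (62 reads, 0.360 to 0.602), 38.0 times higher in TALL104 (10.1 to 321.1). Each line therefore had 1 DM chain above and 1 below the other line, with intervals that did not overlap. HLA-DMA overlaps BRD2, a broadly expressed chromatin reader gene on the opposite strand (47.0 FPKM in Jurkat and 69.0 in TALL104). An unnamed readthrough gene (ENSG00000248993) on the strand of both DM chains, listed at 0 in both lines, shared 2.03% of the read-length stretches of HLA-DMA and 6.66% of those of HLA-DMB. All 60 shared stretches of HLA-DMA were shared with this readthrough gene, and BRD2 transcripts shared no stretch of read length with HLA-DMA. The strand setting of the counting is not given in the sources used here, so reads of the overlap cannot be assigned with certainty. The part of BRD2 reads in the HLA-DMA value was not tested.

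CD74, the invariant chain, was listed at 0 in Jurkat (upper limit 0.0333 FPKM) and had 0.0776 FPKM in TALL104 (7 reads, 0.0312 to 0.160), so the intervals overlapped. CIITA, the coactivator of the class II promoters, had 0.00239 FPKM in Jurkat (1 read) and was listed at 0 in TALL104, where 3 reads would be 0.00879 FPKM. In each human line, both genes together had 7 reads at most. CIITA overlaps DEXI on the opposite strand (9.22 and 8.20 FPKM), and 18.6% of its stretches of read length were shared with DEXI or an unnamed gene.

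Between the mouse lines, 4 of 10 members passed 1.5-fold, against 21% of all mouse genes. H2-Eb1 and H2-Oa were higher in EL4 (9.75% of all genes were), and H2-DMa and Cd74 were higher in IVA12 (11.2% of all genes were). With a pseudocount of 0.1 FPKM 8 members passed, 5 of them higher in IVA12, and the share of all mouse genes at that setting is not given here. The median log2 ratio of EL4 over IVA12 was -0.11 over the 10 members and 0.00 over all mouse genes.

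Among the mouse antigen-presenting chains, H2-Aa and H2-Ab1, the I-A pair, were low in both lines. H2-Aa had 0.0996 FPKM in EL4 (3 reads, 0.0205 to 0.291) and 0.591 FPKM in IVA12 (14 reads, 0.323 to 0.991), 5.93 times higher in IVA12 (1.66 to 32.2). For H2-Ab1, EL4 held 0 reads and IVA12 held 1 read, a level of 0.0242 FPKM. H2-Eb1, the I-E beta chain (ENSMUSG00000060586, mm10 chromosome 17, 34305867 to 34316674, plus strand), was above both of them in each line, with 4.13 FPKM in EL4 (157 reads, 3.51 to 4.82) and 0.969 FPKM in IVA12 (29 reads, 0.649 to 1.39). In IVA12 the intervals of H2-Eb1 and H2-Aa overlapped. The EL4 level of H2-Eb1 was 4.26 times higher (2.85 to 6.57), a log2 value of 1.38 on FPKM + 1. The antisense gene Gm20513 overlaps H2-Eb1 and was at 0 in EL4 and 0.810 FPKM in IVA12.

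The mouse DM chains also split between the lines. H2-DMa (ENSMUSG00000037649, mm10 chromosome 17, 34119541 to 34139101, plus strand) had 0.228 FPKM in EL4 (12 reads, 0.118 to 0.397) and 1.93 FPKM in IVA12 (80 reads, 1.53 to 2.40), 8.48 times higher in IVA12 (4.59 to 17.1), a log2 ratio of -1.25 for EL4 over IVA12. It overlaps Brd2 on the opposite strand, at 36.9 FPKM in EL4 and 30.4 in IVA12, and shares 6.54% of its read-length stretches with it. The part of Brd2 reads in its value was not tested. H2-DMb1, a DM beta chain, had 0.356 FPKM in EL4 (17 reads, 0.207 to 0.570) and was listed at 0 in IVA12, and its lower limit in EL4 was 2.60 times the level of 3 reads in IVA12. H2-DMb2, the neighbouring beta chain, had 0 reads in EL4 and 1 read in IVA12, a level of 0.139 FPKM (0.00351 to 0.773). The beta chains share 11.2% of the read-length stretches of H2-DMb1 and 10.1% of those of H2-DMb2 with each other, so their split is uncertain.

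The chains of the DO chaperone were split between the lines. H2-Oa, the alpha chain (ENSMUSG00000024334, mm10 chromosome 17, 34092340 to 34095234, plus strand), had 5.30 FPKM in EL4 (112 reads, 4.37 to 6.38) and was listed at 0 in IVA12. Its lower limit in EL4 was 24.2 times the level of 3 reads in IVA12, and the log2 value was 2.66 on FPKM + 1. H2-Ob, the beta chain, had 0 reads in EL4 and 14 reads in IVA12, a level of 0.176 FPKM (0.0960 to 0.295) whose lower limit was 3.24 times the level of 3 reads in EL4. Neither line therefore had both chains above 0. The antisense gene BC051537 (0.168 FPKM in EL4) overlaps H2-Oa and shares 8.90% of the read-length stretches of H2-Oa.

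Cd74 (ENSMUSG00000024610, chromosome 18) had 0.154 FPKM in EL4 (7 reads, 0.0621 to 0.318) and 44.3 FPKM in IVA12 (1578 reads, 42.1 to 46.5). The IVA12 level lay above 95.3% of mouse genes and was 286.6 times the EL4 level (138.8 to 714.0), a log2 ratio of -5.29 for EL4 over IVA12. Ciita did not follow it, with 0.0592 FPKM in EL4 (10 reads, 0.0284 to 0.109) and 0.0677 FPKM in IVA12 (9 reads, 0.0310 to 0.129), a ratio of 0.874 (0.319 to 2.43) whose interval includes 1 and also differences of more than 2-fold either way. In IVA12, Cd74 thus stood at 44.3 FPKM while the 2 I-A chains and Ciita were each under 1 FPKM. Dexi overlaps Ciita on the opposite strand (1.25 FPKM in EL4 and 1.37 in IVA12), and 0.314% of the read-length stretches of Ciita were shared with it. The part of Dexi reads in the Ciita values was not tested.

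Chains of the class II family outside the list were also uneven. HLA-DOA, the human DO alpha chain, had 1.63 FPKM in Jurkat (227 reads) and 0.0176 in TALL104 (2 reads), and HLA-DOB, its partner, had 0.851 FPKM in Jurkat (55 reads) and 1.73 in TALL104 (91 reads). HLA-DOA passed 1.5-fold and HLA-DOB, at a log2 value of -0.56, did not. HLA-DQA2, HLA-DQB2 and HLA-DRB5 were at 0 to 0.0456 FPKM. In mouse, H2-Eb2, an I-E beta chain homologue beside H2-Eb1, had 11.9 FPKM in EL4 (844 reads) and 0.0537 in IVA12 (3 reads), so it was higher than every EL4 member, in the same line as H2-Eb1 and H2-Oa.

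The DNA-binding factors of the class II promoter were present in all 4 lines. All 7 genes of RFX, CREB1 and NF-Y were detected in every line, at 6.36 to 56.1 FPKM in the human lines and 1.03 to 24.8 FPKM in the mouse lines. Of the human genes 5 of 7 were higher in Jurkat, with NFYA at 56.1 against 22.0 FPKM and NFYB at 17.9 against 7.58 FPKM. RFX5, which carries the DNA-binding domain of the RFX complex, was at 37.9 FPKM in Jurkat and 19.8 in TALL104. In mouse 1 of 7 passed 1.5-fold, Creb1 at 10.1 FPKM in EL4 and 1.03 in IVA12, while Nfya was at 14.3 and 9.81 FPKM. The median log2 ratio of the list was 0.91 for Jurkat over TALL104 and 0.31 for EL4 over IVA12, beside 0.10 and -0.02 over all genes of at least 1 FPKM in both lines. The factors were therefore measured beside CIITA or Ciita levels under 0.1 FPKM in each line.

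Coactivators that CIITA recruits were detected in every line, 5 of 5 in each species. In the human pair 2 were higher in Jurkat and 3 in TALL104, led by the acetyltransferase KAT2B (3.84 and 69.5 FPKM) and the remodeller SMARCA4 (48.1 and 13.8 FPKM). In the mouse pair Crebbp was higher in IVA12 (1.99 and 4.14 FPKM) and the other 4 were within 1.5-fold, Ep300 among them at 8.94 and 13.4 FPKM.

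The interferon-gamma route, which induces CIITA in many cells, differed between lines. Of 9 human genes 6 were higher in TALL104 and 1 in Jurkat. That gene was IFNGR2, a receptor chain needed for signalling, at 11.9 FPKM in Jurkat and 0.310 in TALL104 (26 reads), while the feedback inhibitor SOCS1 was at 0.258 and 12.7 FPKM. IFNGR1, the ligand-binding chain, was at 16.4 FPKM in Jurkat and 77.2 in TALL104. Of 9 mouse genes 5 were higher in EL4, led by Ifngr1 (78.9 and 7.49 FPKM) and Socs1 (5.99 and 0.486 FPKM), and 2 were higher in IVA12. Of all human genes 11.4% passed 1.5-fold toward TALL104 and 13.8% toward Jurkat. Of all mouse genes 9.75% passed toward EL4 and 11.2% toward IVA12. Many of those genes were under 1 FPKM, where the FPKM + 1 scale draws ratios toward 1. Most genes of this list were detected, so these shares are no matched background for it or for similar lists. Whether a list count exceeded that of genes at similar levels was not tested.

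Regulators of the B lineage showed 4 of 9 mouse genes higher in IVA12 and 2 in EL4. Spi1, the factor PU.1, was at 0.0115 FPKM in EL4 and 18.1 in IVA12, and Irf4 at 9.73 and 150.9 FPKM. In the human pair 3 of 9 were higher in Jurkat and 2 in TALL104, led by TCF3 (37.5 and 8.27 FPKM) and POU2AF1 (2.09 and 0.0143 FPKM). Genes linked to silencing of class II included Prdm1, which encodes a repressor of Ciita known from plasma cells, at 0.300 FPKM in EL4 and 18.9 in IVA12, and Eed at 17.5 and 38.8 FPKM. Of this list 3 of 8 mouse genes were higher in IVA12 and 1 in EL4. In human 6 of 8 were higher in Jurkat and 1 in TALL104, with EZH2 at 47.3 and 9.92 FPKM and PRDM1 at 0.393 and 7.32 FPKM.

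**Figure D2:**
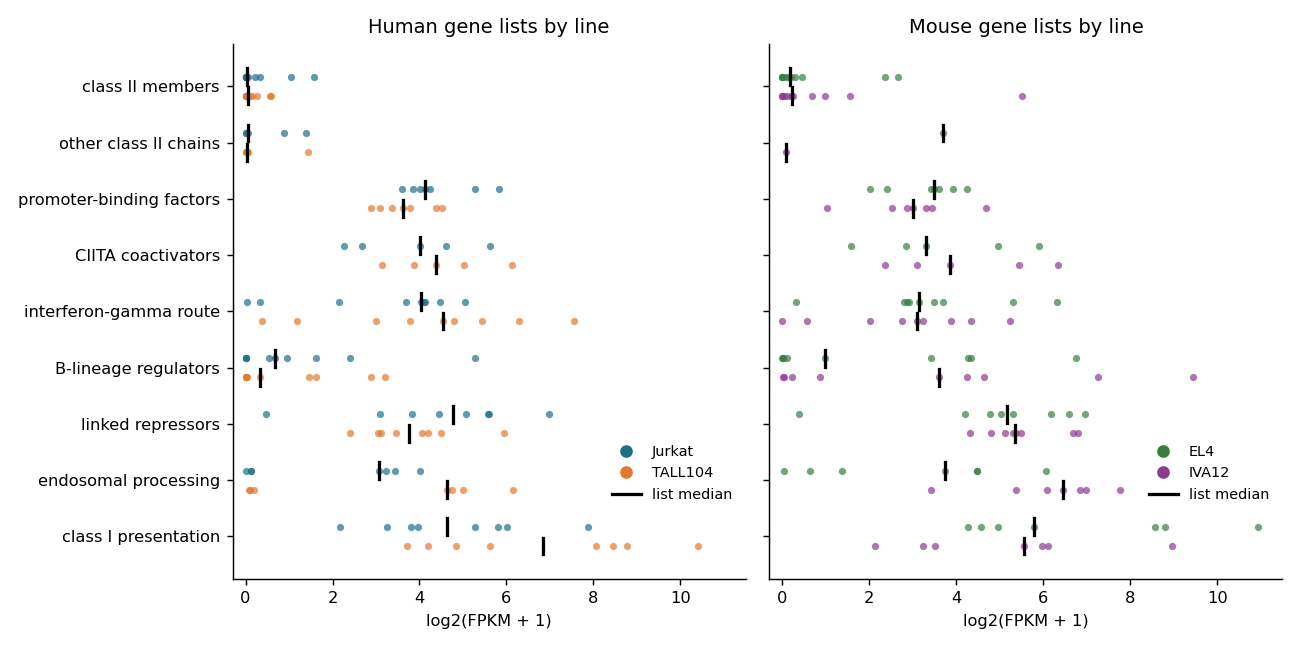
Genes of the class II members and 8 related lists by line, each point 1 gene on log2(FPKM + 1), with black bars for list medians. Most members sit near 0 in every line, with Cd74 in IVA12 apart from them, while all promoter-binding factors lie above 1 on this scale, and endosomal processing genes are shifted to higher values in IVA12 than in EL4.

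Endosomal enzymes that digest antigen and the invariant chain were high in IVA12 beside Cd74. Of 7 mouse genes 6 were higher in IVA12, with Ctss, the main invariant chain protease of B cells, at 0.0229 FPKM in EL4 and 217.3 in IVA12. Lgmn was at 0.549 and 126.0 FPKM. Ifi30, a thiol reductase of the antigen pathway, was at 1.59 and 86.3 FPKM. The median log2 ratio of EL4 over IVA12 was -2.35 over the list. The exception was Sppl2a, the protease that cuts the last membrane fragment of CD74, at 21.2 FPKM in EL4 and 9.68 in IVA12. In the human pair 4 of 7 were higher in TALL104 and 1 in Jurkat, with CTSS at 0.0952 and 26.0 FPKM and LGMN at 7.45 and 0.0814 FPKM, and the median log2 ratio was -1.19.

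Class I presentation genes, measured for comparison, were detected in every line. Of 8 human genes 7 were higher in TALL104, including HLA-B (37.8 and 438.9 FPKM) and B2M (233.5 and 1351 FPKM). In TALL104 0 of the 10 class II members were detected, although the class II chain HLA-DOB, outside the list, was at 1.73 FPKM. At a level of 0.1 FPKM instead of 1, Jurkat and TALL104 had 4 members each. Of 7 mouse genes 6 were higher in EL4, including H2-K1 (442.7 and 68.4 FPKM) and H2-D1 (380.9 and 46.2 FPKM). Over this list the median log2 ratio was -2.14 for Jurkat over TALL104 and 2.14 for EL4 over IVA12. Over all genes of at least 1 FPKM in both lines it was 0.10 and -0.02. NLRC5, the class I counterpart of CIITA, was at 3.50 FPKM in Jurkat and 17.4 in TALL104, and Nlrc5 at 18.3 in EL4 and 3.38 in IVA12, well above the CIITA and Ciita levels of the same libraries.

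Partners of class II and CD74 proteins were measured as well. CD4 and LAG3, which encode surface proteins of T cells that bind class II, were at 0.985 and 0.0188 FPKM in Jurkat. In TALL104 they were at 0.0308 and 0.623 FPKM, and Cd4 and Lag3 were at or below 0.208 FPKM in both mouse lines. MIF, the soluble ligand of CD74, was at 170.0 FPKM in Jurkat and 36.0 in TALL104, and CD44, a co-receptor, at 0.0257 and 76.4 FPKM. In mouse, Mif was at 416.3 FPKM in EL4 and 319.4 in IVA12, and Cd44 at 22.4 and 96.6 FPKM. Ligand RNA was therefore detected in all 4 lines, while CD74 or Cd74 was detected in IVA12 only.

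Turnover and costimulation genes completed the lists. The ligase gene MARCHF8 was at 5.19 and 8.70 FPKM in Jurkat and TALL104, CD83 at 18.0 and 1.19 FPKM, and MARCHF1 at 0 in both. March8 was at 0.891 FPKM in EL4 and 2.19 in IVA12, with March1 and Cd83 at 0 in both. Of the costimulatory genes of antigen-presenting cells, Cd80 alone reached the detection level, at 1.04 FPKM in EL4 (57 reads) and 0.721 in IVA12. The others ranged lower, with CD80 at 0.00898 and 0.904 FPKM and CD86 at 0.0587 and 0 FPKM in Jurkat and TALL104, and Cd86 at 0 and 0.951 FPKM and Cd40 at 0 and 0.290 FPKM in EL4 and IVA12.

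Marker lists of B cells, of plasma cells and of myeloid and dendritic cells were read beside these values. In the human lines, the B cell list had CD79A at 16.6 and 24.6 FPKM and CD79B at 0.0415 and 4.80 FPKM, with PAX5 at 0.0124 and 0 FPKM. The plasma cell list had 1 of 6 genes higher in Jurkat, MZB1 at 47.7 and 8.88 FPKM, and 3 in TALL104. Those 3 were PRDM1 (0.393 and 7.32 FPKM), XBP1 (31.3 and 76.6 FPKM) and JCHAIN (0.0513 and 0.588 FPKM). Of myeloid and dendritic markers 0 of 6 were detected in Jurkat and 2 in TALL104, ITGAX at 0 and 9.33 FPKM and ITGAM at 0.0406 and 1.47 FPKM. In mouse, Flt3 was at 6.10 and 2.25 FPKM and Lyz2 at 1.16 and 0.0937 FPKM in EL4 and IVA12, the 2 of 6 that were higher in EL4, with Csf1r at 0 in both lines. The summed myeloid list was 0.188 FPKM for Jurkat, 11.0 FPKM for TALL104, 7.75 FPKM for EL4 and 2.41 FPKM for IVA12. The part of other cell types in the class II values was not tested.

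Genes lying among the members were measured too. In the stretch of hg19 chromosome 6 from 32407655 to 33057473 that holds 8 human members, 7 of 16 other genes were detected in each human line. Of all human genes 33.2% were detected in Jurkat and 33.1% in TALL104. In each line 1 of the 7 was itself a class II chain, HLA-DOA in Jurkat and HLA-DOB in TALL104. Ranked by the higher of both lines, BRD2, PSMB8 (67.8 FPKM in Jurkat and 37.1 in TALL104) and PSMB8-AS1 (6.13 and 29.7 FPKM) came first, although TAP1 (12.9 FPKM), PSMB9 (12.5 FPKM) and TAP2 (8.57 FPKM) were above PSMB8-AS1 in Jurkat. In mm10 chromosome 17 from 34092340 to 34316674, which holds 8 mouse members, 5 of 8 other genes were detected in each line, with Psmb8 at 75.1 FPKM in EL4 and 23.6 in IVA12 and Tap2 at 53.8 and 8.41 FPKM. Of all mouse genes 34.3% were detected in EL4 and 35% in IVA12. Immunoproteasome and peptide transporter genes between the class II genes thus had higher FPKM than every member of the same stretch in the same line.

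**Figure D3:**
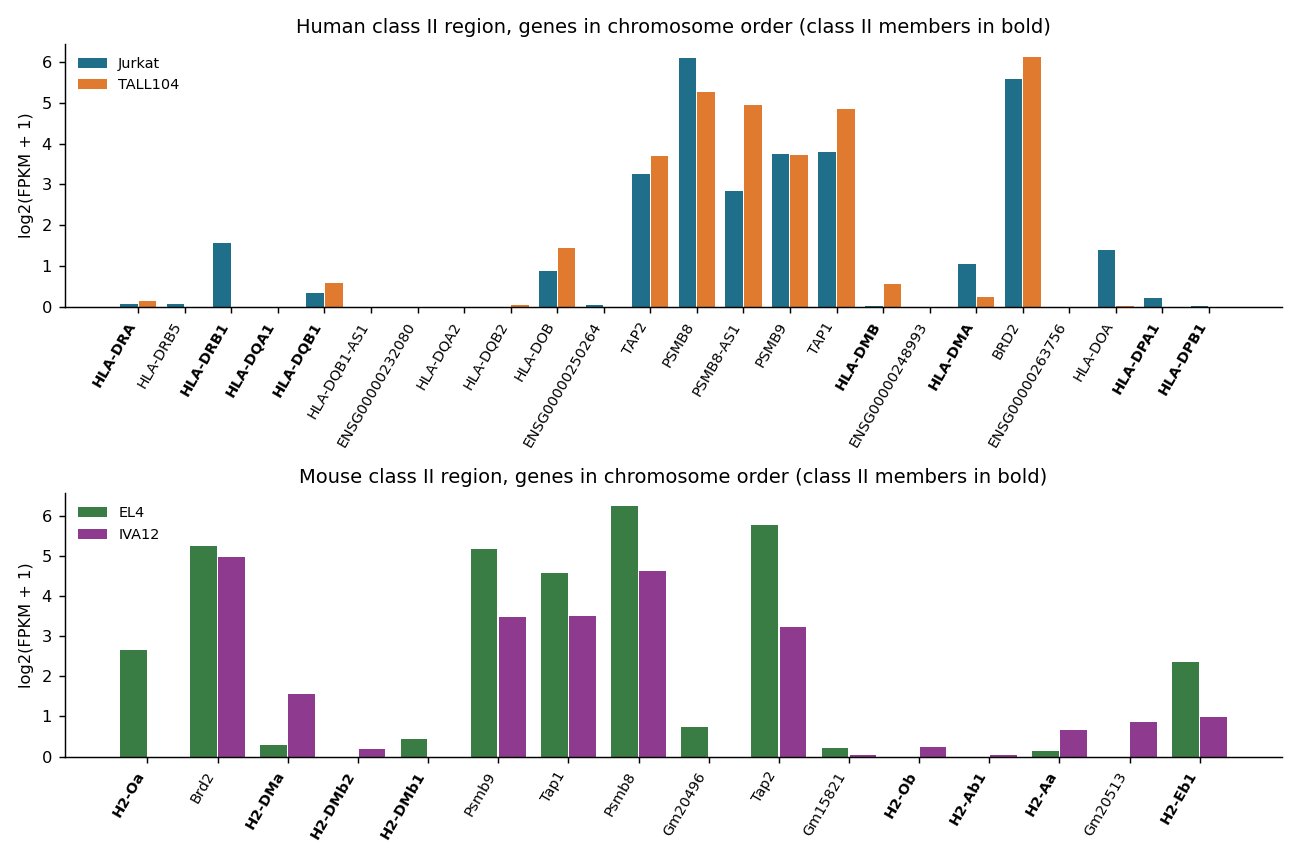
Genes of the class II region of human chromosome 6 (top) and mouse chromosome 17 (bottom) in chromosome order, spaced evenly, with bars of log2(FPKM + 1) for each line and members in bold. The tall bars belong to TAP, PSMB and BRD2 genes, whereas member bars stay under 3 on this scale.

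Genes with the most similar pattern were sought by Euclidean distance on log2(FPKM + 1). Over the 4 libraries and 15550 symbols shared by the species, ALPL (distance 0.236), BLNK (0.291) and IGSF23 (0.413) were nearest to CD74, with 47.5, 39.6 and 33.5 FPKM in IVA12 and at most 0.220 FPKM in the other lines. RHCG, TOMM6 and CFAP46 were nearest to CIITA, but 4263 genes lay within 0.5 of it, so this likeness mainly describes values listed at or near 0, which for TOMM6 need not mean low RNA. Over the pair of libraries of 1 species, the nearest genes were ENSG00000244620 for HLA-DRB1, SAMD15 for HLA-DMA, Akap12 for H2-Eb1, Gm5819 for H2-DMa, Ctla2a for H2-Oa and Rhox2h for Cd74.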

How the data were processed

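Bulk RNA of 4 cell lines was measured in 1 stranded mRNA library per line with paired 101-base reads. Per the study's methods and the submitters' processing notes, the authors aligned reads with STAR 2.5.1b to the combined hg19 and mm10 reference of Cell Ranger 1.2.0, counted them with featureCounts 1.6.3 and deposited FPKM for human and mouse genes in 1 table. The strand setting of counting, the treatment of reads with several alignments and the gene lengths are not given in the sources used here. The table held 0 further columns of values.

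Whole reads and library totals were solved from the FPKM (100% of values above 0 came out whole at a relative tolerance of 1e-12). They are the smallest whole numbers that fit, so true reads may be a multiple and the intervals then too wide. Recovered and annotated exon lengths were the same in 22.2% (human) and 72.8% (mouse) of genes. Totals ran from 25286728 to 34783047 reads. Intervals are exact at 95% (Poisson, and Clopper-Pearson for ratios). Beside a listed 0 the level of 3 reads served as a reference. The exact upper limit lies above it, at 0.106 against 0.0861 FPKM for HLA-DRB1 in TALL104. PCR copies are not independent molecules, so intervals cover counting error only.

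Libraries were grouped by line and compared within species on log2(FPKM + 1) with a threshold of 1.5-fold, and no test was made. Alternatives were other pseudocounts, scalings, thresholds, detection levels and a filter. Members, lists and thresholds were chosen with earlier results of these data known. Named were all members, the 2 genes per list and pair with the largest log2 ratio, the nearest genes in pattern and the 3 highest neighbours in the region, and any other gene named was chosen after its values were seen. Symbols and positions came from GENCODE human 44 mapped to hg19 and mouse M21 on mm10, matched by identifier for 31182 of 32738 human and 27645 of 27998 mouse genes. Of 16 further lists, H2-Ea-ps was not analysed here. The scripts were tested on simulated data. Python 3.11.15, NumPy 2.4.6, pandas 2.3.3, SciPy 1.17.1 and matplotlib 3.10.9 were used.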

Additional observations from a re-analysis of the deposited data

Results flagged for a closer look

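Human CD74 had 0.0497 FPKM in the library of the mouse line IVA12 (4 reads, exact 95% Poisson interval 0.0135 to 0.127), and it was listed at 0 in the human line Jurkat. It was marked because a human gene had signal in a mouse library, beyond the reference level of 3 reads used beside a listed 0. Mouse Cd74 was at 44.3 FPKM in the same library. Across all human members, 4 were above 0 in IVA12 (7 reads together) and 1 in EL4 (2 reads), and of the mouse members 1 was above 0 in Jurkat (1 read) and 0 in TALL104. Genes of the other species held 0.175% of summed FPKM in IVA12 and 0.0379% to 0.0474% in the other libraries. The source of these reads was not tested, and human member values of a few reads are of the same size.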

How the results depend on the processing

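The counts of members past 1.5-fold depended on the pseudocount. With 0.1 FPKM the human count went from 2 to 6 (TALL104 from 0 to 3) and the mouse count from 4 to 8 (IVA12 from 2 to 5). With 0.01 FPKM they were 8 (4 higher in Jurkat and 4 in TALL104) and 9 (6 higher in IVA12). At a 2-fold threshold 1 human member was left, higher in Jurkat. Without the 4 members that overlap a gene of at least 1 FPKM, a choice made after seeing the data, the human count was 1 (higher in Jurkat), and 1 mouse member was higher in IVA12. Members detected in Jurkat numbered 8 above 0 FPKM, 4 at 0.1 and 0 at 5 FPKM or more. In TALL104 they numbered 6, 4 and 0, in EL4 7, 5 and 1, and in IVA12 8, 6 and 1. The shares of all genes at these other settings are not given here, so the counts show only how the members moved.

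Scaling by the median ratio shifted log2 FPKM by -0.11 for Jurkat over TALL104 and by 0.02 for EL4 over IVA12. On FPKM + 1 single members moved less, HLA-DRB1 from 1.57 to 1.53 and HLA-DMA from 0.79 to 0.75. Under each of the 3 scalings 2 human members were higher in Jurkat, 0 in TALL104, 2 mouse members in EL4 and 2 in IVA12. The totals of 57 human and 53 mouse list genes past 1.5-fold stayed within 1.5 times under both alternatives, but single lists did not. With a pseudocount of 0.1 FPKM the human counts went from 1 to 2 (other chains, B cell markers, costimulation) and from 2 to 4 (myeloid), and the mouse counts from 1 to 2 (promoter-binding factors, costimulation) and 0 to 2 (class II receptors). Among genes of at least 1 FPKM in either line, human class II receptors went from 2 to 0 and costimulation from 1 to 0 in both species. Leaving out HLA-DQA1, the log2 ratios of single members were held against a counting interval on FPKM + 1. Under another pseudocount 37 of 38 fell outside it, and under another scaling 0 of 57 did. A smaller pseudocount is another scale, on which ratios of genes under 1 FPKM grow, while scaling hardly moves such genes on FPKM + 1. These counts were thus largely set by the scale and do not measure counting error. No paired analysis was possible because each line had 1 library, so no library could be left out either. Most members had under 100 reads, and differences below a few reads were not detectable at this depth.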
